A study of Mus musculus with 7 samples.

Results

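The insulin and insulin-like growth factor (IGF) system was described in mouse pancreatic islets through 10 genes out of 34245 listed in the deposited table. These were the ligands Igf1 and Igf2, the binding proteins Igfbp2, Igfbp3, Igfbp4, Igfbp5 and Igfbp7, and the receptors Igf1r, Igf2r and Insr, matched by gene symbol. They were chosen by name with earlier results of these data known, and Igfbp5 was selected on its difference in RNA level between knockout and control islets. Differences of the 10 genes between these groups are therefore given as a description, without a test.

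PolyA RNA was sequenced from whole islets of C57BL/6J mice aged 8 weeks, in 5 libraries of the knockout (KO) group and 2 of the control group. Whether a library held RNA of 1 mouse is not stated, so SDs measure the spread between libraries. SEs come from a fit that draws the variance of each gene toward that of genes of similar level. They can therefore lie below or above what the spread of that gene alone would give. KO mice carried the tm1d allele of Abca12, a lipid transporter gene whose floxed form had been deleted by Rip1-Cre, a Cre recombinase driven by an insulin promoter and so acting in beta cells. Control 1 had wild-type Abca12 alleles and Control 2 was heterozygous for the floxed allele, and both carried Rip1-Cre. The deletion is directed at beta cells, whereas the RNA came from all cells of the islet. The column headers of KO 1 and KO 2 end with the letter f, those of KO 3 to KO 5 and of both controls with m.

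IGF-I and IGF-II act mainly through the IGF-I receptor, and insulin through the insulin receptor, both tyrosine kinases that pass the signal to IRS proteins, PI3 kinase and AKT. The IGF-II receptor has no kinase, carries IGF-II to lysosomes for breakdown and also sorts lysosomal enzymes. Binding proteins hold IGFs outside the cell and can limit or prolong their action, and proteases release the IGFs again. In beta cells the insulin and IGF-I receptors are known for supporting cell survival and insulin secretion.

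Values are in RPM, the reads of a gene scaled to library depth, which lay between 23922958 and 43117317 reads. Genes in the table held 13335960 to 24590888 of these reads per library. Abca12 was listed at 0 reads in each library, controls included, so the deleted gene cannot check the labels. By counting error alone, 0 reads allow 0.0696 to 0.125 RPM (3 reads). Igfbp2, with 4 to 11 reads per library, did not reach the minimum for a fit (10 reads at the median depth in at least 2 libraries), and the other 9 genes did. Over all 16212 genes that reached it, 7 (0.0432%) were higher and 3 (0.0185%) lower in KO by limma at an adjusted p under 0.05, together 0.0617%, and scaling to the reads in listed genes gave 8 higher and 6 lower. Groups are called separate below where the KO values were all above or all below the control values, which held for 15.2% of the 16212 genes. In bulk RNA such as this, fewer cells of a type and less RNA per cell cannot be told apart.

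The ligands had low RNA levels in these islets. Igf1 (GRCm38 chromosome 10, 87858265 to 87937042, plus strand) had 1.26, 1.01, 1.10, 0.586 and 0.649 RPM in KO 1 to KO 5, against 0.836 and 1.39 RPM in Control 1 and Control 2. Igf2 (chromosome 7, 142650766 to 142666816, minus strand), an imprinted gene of fetal growth, had 1.19, 1.31, 0.894, 0.952 and 1.14 RPM in KO 1 to KO 5, against 1.05 and 0.663 RPM in Control 1 and Control 2. For both genes the groups overlapped, and no library held more than 49 reads of either. The log2 difference of KO minus control, on the scale of log2(RPM + 1), was -0.14 (SE 0.18) for Igf1 and 0.18 (SE 0.15) for Igf2. The insulin genes, whose products are the ligands of Insr, stood far above them, with Ins2 at 35518 ± 5451 RPM in KO (SD, n = 5) and 37144 ± 3624 RPM in control (SD, n = 2).

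Igfbp5 was the binding protein gene with the most reads in all libraries but KO 1, where Igfbp7 had 2208 and Igfbp5 2098 reads, and the only member in the authors' deposited table of 136 selected genes. It lies on chromosome 1 (GRCm38, 72857932 to 72874884, minus strand), the chromosome of Abca12. Its level was 80.4, 74.3, 81.5, 106.6 and 108.2 RPM in KO 1 to KO 5, against 135 and 174 RPM in Control 1 and Control 2. Every KO library lay below both controls, and KO 4 and KO 5 were nearer to the controls than the other 3. The mean was 90.2 ± 15.97 RPM in KO (SD, n = 5) and 154 ± 27.0 RPM in control (SD, n = 2), a KO-to-control ratio of 0.584 and a log2 difference of -0.78 (SE 0.15). In the authors' deposited table the log2 difference, turned to KO minus control, was -0.78 with a corrected p-value of 0.0298, the 95th largest absolute difference of the 136. That table and these values belong to the contrast in which the gene was singled out, so they lend it no further weight.

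Since every KO library lay below both controls, leaving out any 1 library could not turn the sign for Igfbp5. The log2 differences so obtained were -0.95 to -0.60. The smallest of these came without Control 2, which had the highest level, and the largest without Control 1. Among the 5 libraries with m in their headers the difference was -0.64. Without KO 2 and KO 3, the libraries richest in acinar transcripts, it was -0.65.

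**Figure D1:**
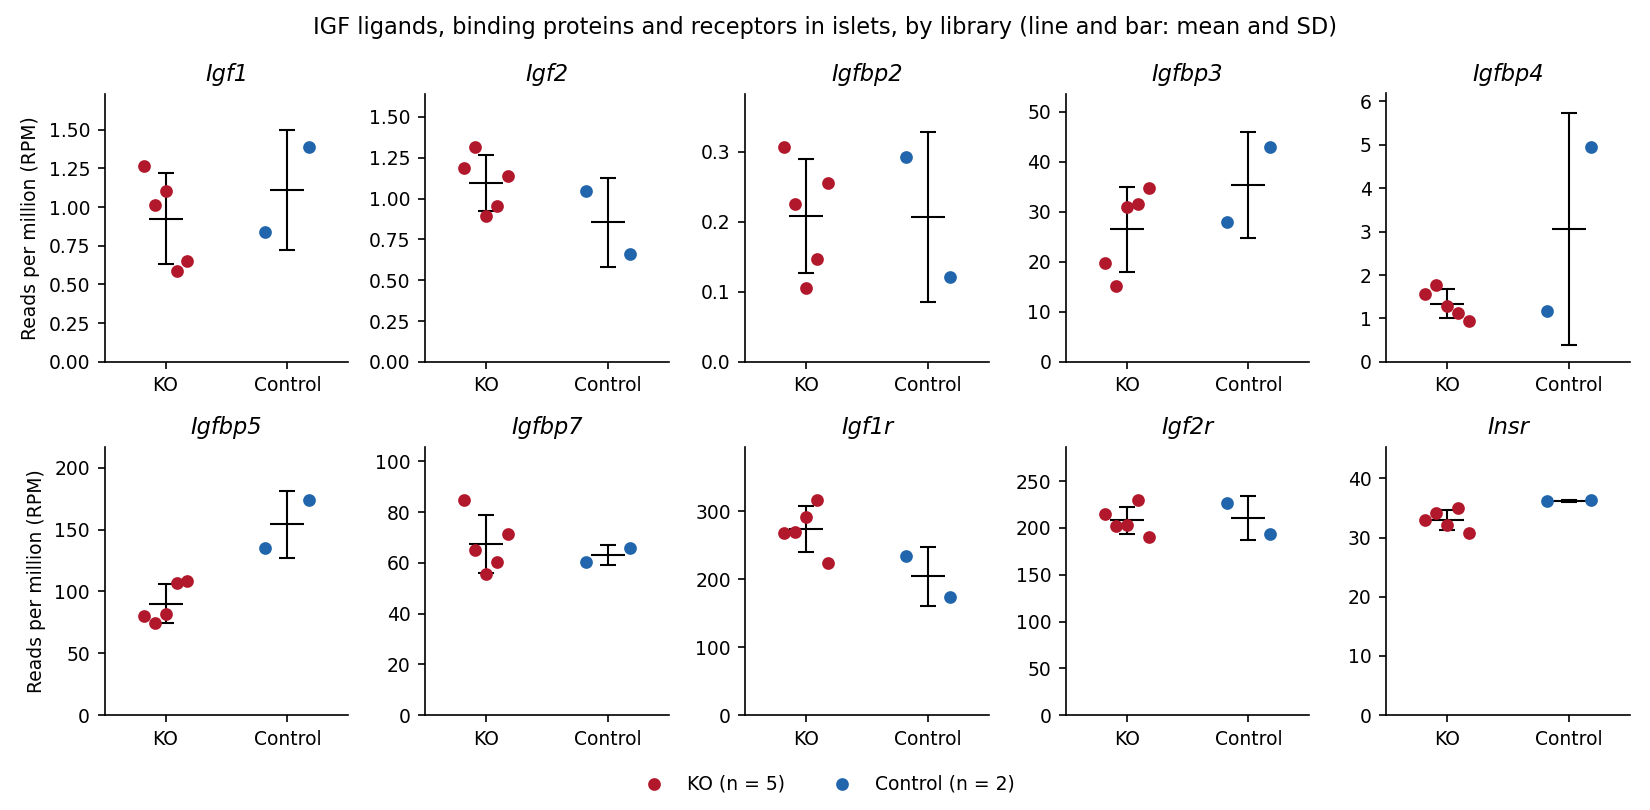
Level of each of the 10 genes in RPM (y axis, from 0, own scale per gene) in 5 KO and 2 control libraries. Points are libraries, the long line is the mean and the bar the SD. For Igfbp5 the KO libraries sit between 74.3 and 108.2 RPM, below the controls at 135 and 174 RPM, and for most other genes the groups overlap.

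The other binding proteins did not share this picture. Igfbp3 (chromosome 11, 7206086 to 7213923, minus strand), the main IGF carrier in blood, had 19.9, 15.2, 31.1, 31.7 and 34.9 RPM in KO 1 to KO 5, against 28.0 and 42.9 RPM in Control 1 and Control 2. The 2 lowest values were those of KO 1 and KO 2, while KO 3 to KO 5 lay between the controls. The log2 difference was -0.44 (SE 0.27), and among the libraries with m in their headers it was -0.09. Without Control 2 it was -0.14, without Control 1 it was -0.74 and without KO 2 it was -0.26.

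Igfbp4 (chromosome 11, 99041244 to 99054392, plus strand), a binding protein that inhibits IGF action, had 1.57, 1.77, 1.29, 1.14 and 0.951 RPM in KO 1 to KO 5, against 1.17 and 4.94 RPM in Control 1 and Control 2. Control 2 alone stood apart, and Control 1 lay within the KO range. The log2 difference of -0.63 (SE 0.30) became 0.10 without Control 2 and -1.36 without Control 1.

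Igfbp7 (chromosome 5, 77349240 to 77408041, minus strand), which binds IGFs only weakly and also binds insulin, had 84.6, 65.2, 55.6, 60.2 and 71.4 RPM in KO 1 to KO 5, against 60.2 and 65.9 RPM in Control 1 and Control 2. The controls lay within the KO range, and the log2 difference was 0.08 (SE 0.13). Polr2b overlaps the end of Igfbp7 by 85 bases on the other strand, and the strand setting of the counting is not given in the sources used here. Igfbp2 (chromosome 1, 72824503 to 72852474, plus strand) had 0.105 to 0.306 RPM in KO, against 0.293 and 0.121 RPM in Control 1 and Control 2, too few reads for a comparison.

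As a share of the summed per-length level of the 5 binding proteins, Igfbp5 made up 14.8%, 17.3%, 19.4%, 22.8% and 20.3% in KO 1 to KO 5, against 27.6% and 29.4% in Control 1 and Control 2. The groups did not overlap in this share, which was computed after the levels were seen and contains the difference in Igfbp5 itself.

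Igfbp2 and Igfbp5 face each other on chromosome 1 with 5458 bases between their ends, yet Igfbp2 had at most 11 reads per library and Igfbp5 at least 1979. RefSeq (GRCm38.p6) gives Igfbp5 1 start and Igfbp2 2 starts. The bases before the Igfbp5 start and the upstream Igfbp2 start are shown to set this pair beside each other, together with those of Igf1r, the receptor gene of highest mean RPM. Capitals mark motif matches on either strand, with the letters GGGCGG searched for the Sp1-type box and CACGTG for the E-box. The sequence TATAAA of the classical core promoter element and the forkhead core TGTTTAC were also searched and had no match in the 3 windows. Only exact letters were counted, so variants of these motifs are missed. For all 3 genes the RefSeq start differs from the gene position in the deposited table.
Igfbp5, chr1:72874866-72875115, minus strand: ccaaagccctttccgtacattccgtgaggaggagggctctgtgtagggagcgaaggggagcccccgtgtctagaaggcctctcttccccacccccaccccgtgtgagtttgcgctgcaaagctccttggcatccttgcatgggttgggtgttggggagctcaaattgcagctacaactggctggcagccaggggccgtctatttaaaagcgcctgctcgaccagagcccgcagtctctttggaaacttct
Igfbp2, chr1:72824230-72824479, plus strand: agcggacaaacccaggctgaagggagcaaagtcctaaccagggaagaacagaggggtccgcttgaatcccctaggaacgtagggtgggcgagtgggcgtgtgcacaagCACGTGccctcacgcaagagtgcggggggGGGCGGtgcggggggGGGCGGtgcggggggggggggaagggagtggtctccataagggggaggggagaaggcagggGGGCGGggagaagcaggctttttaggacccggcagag
Igf1r, chr7:67952007-67952256, plus strand: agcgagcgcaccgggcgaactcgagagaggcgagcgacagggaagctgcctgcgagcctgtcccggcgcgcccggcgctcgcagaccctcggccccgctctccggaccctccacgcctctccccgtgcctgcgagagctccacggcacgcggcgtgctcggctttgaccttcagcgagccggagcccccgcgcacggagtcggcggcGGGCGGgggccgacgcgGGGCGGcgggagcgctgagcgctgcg
The Igfbp5 window held none of the 4 motifs and was 58.8% G or C, against a median of 52.4% over 32851 windows of 250 bases. The printed Igfbp2 window was 67.2% G or C with 3 Sp1-type boxes and 1 E-box, whereas the window of its other start (chr1:72825137-72825386, not printed) was 56.4% and, like that of Igfbp5, held none of the 4. The Igf1r window was 77.6% G or C with 2 Sp1-type boxes. An Sp1-type box was present in 32.7% of all windows, an E-box in 6.02%, TATAAA in 12.4% and the forkhead core in 3.17%. Of the 10 genes, 9 matched an entry of the RefSeq table, the exception being Insr, and Igfbp4 alone of the 9 held TATAAA, 28 bases before its start.

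Among the receptors, the differences of Igf1r and Insr were of opposite sign. Igf1r (chromosome 7, 67952827 to 68233668, plus strand) had 268, 269, 291, 316 and 224 RPM in KO 1 to KO 5, against 234 and 174 RPM in Control 1 and Control 2. KO 5 lay between the controls and the other 4 KO libraries above them. The mean was 274 ± 33.8 RPM in KO (SD, n = 5) and 204 ± 42.9 RPM in control (SD, n = 2), a log2 difference of 0.43 (SE 0.13). Without Control 2 this difference was 0.21, and without Control 1 it was 0.64.

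Insr (chromosome 8, 3122061 to 3279617, minus strand) had 33.1, 34.1, 32.1, 34.99 and 30.8 RPM in KO 1 to KO 5, against 36.1 and 36.3 RPM in Control 1 and Control 2. All KO libraries lay below both controls, by a small margin for KO 4. The mean was 33.0 ± 1.65 RPM in KO (SD, n = 5) and 36.2 ± 0.118 RPM in control (SD, n = 2), a log2 difference of -0.13 (SE 0.07) that stayed between -0.16 and -0.10 in all alternatives tried. Of the 9 fitted genes, Igfbp5 and Insr were the 2 whose groups were separate, with the KO libraries below the controls in each, while over all 16212 genes KO lay below in 8.41% and above in 6.75%. This share rests on the contrast known when the genes were named, and nothing is read from it.

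Igf2r (chromosome 17, 12682406 to 12769664, minus strand) had 215, 202, 203, 229 and 190.3 RPM in KO 1 to KO 5, against 227 and 194 RPM in Control 1 and Control 2. The groups overlapped fully, with a log2 difference of -0.01 (SE 0.09). Airn, the noncoding RNA that overlaps Igf2r by 28354 bases on the other strand, had 4.18 ± 0.858 RPM in KO (SD, n = 5) and 4.68 ± 0.355 RPM in control (SD, n = 2).

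The ratio of Igf1r to Insr, each per kilobase of exon, was 6.64, 6.46, 7.41, 7.38 and 5.96 in KO 1 to KO 5, against 5.31 and 3.92 in Control 1 and Control 2. The groups were separate in this ratio, and likewise for Igf1r over Igf2r, at 0.653 to 0.794 in KO against 0.572 and 0.497 in Control 1 and Control 2. These ratios were chosen after the levels were seen and carry no test. A ratio within a library is free of scaling between libraries but does not tell which of the genes differed.

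Levels of the 10 genes can be set against each other only per length, here RPM per kilobase of summed exon length in GENCODE M21, which counts exons of every isoform and so understates genes with many isoforms. Igfbp7 was highest at 55.8 ± 9.30 in KO (SD, n = 5) and 52.1 ± 3.35 in control (SD, n = 2), and its range over the 7 libraries lay above that of every other member. Igf2r, Igfbp5 and Igf1r came next, and the range of Igfbp5 overlapped with those of the other two. Igfbp5 stood at 15.02 ± 2.66 in KO (SD, n = 5) and 25.7 ± 4.50 in control (SD, n = 2), and Igf1r at 16.3 ± 2.01 and 12.1 ± 2.55 in the same groups. Igfbp5 was above Igf1r in both controls and in 1 KO library, KO 5.

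Igfbp3 followed, overlapping with Igf1r, and was separate from Insr at 2.40 ± 0.120 in KO (SD, n = 5) and 2.63 ± 0.00862 in control (SD, n = 2). Igfbp4, Igf2, Igfbp2 and Igf1 lay lowest, below Insr in all 7 libraries, and neighbours among them overlapped. Averaged over libraries, Igfbp7 was above 97.9% of 16112 fitted genes with a known exon length, Igf2r above 93.5%, Igfbp5 above 91.6%, Igf1r above 89.6% and Igfbp3 above 82.2%. Insr stood near the middle, above 49.3%, and Igf1 above 3.50%.

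**Figure D2:**
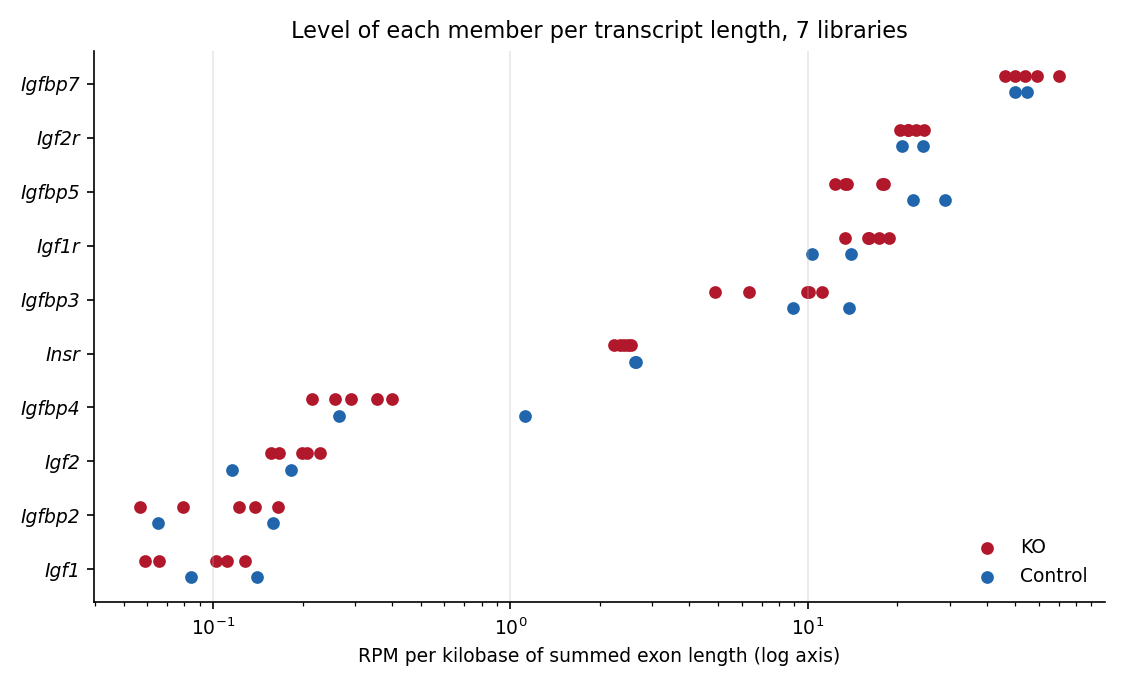
Level of each gene in RPM per kilobase of summed exon length (log axis), with genes ordered by their mean over 7 libraries. Red points are KO and blue points control libraries. The ligands, Igfbp2 and Igfbp4 form the low end, Insr stands between, and Igfbp5 is the gene with both controls to the right of all KO points among the abundant members.

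The genes around the system were read from 5 lists of 84 genes in all, of which 78 reached the minimum. By limma with Benjamini-Hochberg adjustment over all genes 0 of 78 passed in either direction, 15 had an unadjusted p under 0.05 (10.8% of all genes did), and 0 passed with voom. Their median log2 difference was -0.06, beside -0.01 over all genes. Differences were positive for 27 and negative for 51 of them, while 51.7% of all 16212 genes were lower in KO. No list was tested as a whole. KO libraries lay above both controls for 5 of the 78 and below for 15, beside 6.75% above and 8.41% below over all 16212 genes.

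Among 8 other family genes, 3 had positive and 5 negative differences, with a median of -0.11. Igf2bp3, an RNA-binding protein of fetal tissue named for its binding to Igf2 RNA, had 0.562 ± 0.1001 RPM in KO (SD, n = 5) and 0.183 ± 0.0818 RPM in control (SD, n = 2; adjusted p = 0.310 by limma). These levels rest on 3 and 8 reads in Control 1 and Control 2 and at most 28 in any library. Insrr, the orphan receptor of the insulin receptor family, had 50.2 ± 7.24 RPM in KO and 67.7 ± 16.9 RPM in control (adjusted p = 0.322 by limma). Igfbp1 and Igfbp6, the remaining classical binding proteins, had at most 3 reads in any library.

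IGFBP proteases and their inhibitors gave 2 positive and 6 negative differences of 8, with a median of -0.24. Adam12, a metalloprotease that cleaves IGFBP-3 and IGFBP-5, had 0.799 ± 0.258 RPM in KO (SD, n = 5) and 2.42 ± 1.23 RPM in control (SD, n = 2; log2 difference -0.89, adjusted p = 0.132 by limma). It is in the authors' deposited table as well, and it passed in 1 alternative, without Control 1, at -1.26 (adjusted p = 0.0258 by limma), where 1 control library is left. Mmp2, a gelatinase, had 0.400 ± 0.214 RPM in KO and 0.867 ± 0.0749 RPM in control (adjusted p = 0.367 by limma), at 6 to 29 reads per library.

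The signalling relay from IRS proteins to mTOR and MAP kinases gave 9 positive and 19 negative differences of 28, with a median of -0.05. Pik3r3, a regulatory subunit of PI3 kinase, had 26.4 ± 1.33 RPM in KO (SD, n = 5) and 34.5 ± 1.43 RPM in control (SD, n = 2; log2 difference -0.37, adjusted p = 0.102 by limma). Eif4ebp1, a translation repressor controlled by mTOR, had 37.7 ± 3.998 RPM in KO and 31.3 ± 0.215 RPM in control (adjusted p = 0.365 by limma). Irs2, the main IRS protein of beta cells, had 75.2 ± 8.95 RPM in KO and 66.6 ± 13.2 RPM in control, with the groups overlapping.

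Inhibitors and adaptors of the receptors were split evenly, 10 positive and 10 negative of 20, with a median of -0.01. The gene listed as 5330417C22Rik, also known as inceptor, which lowers insulin and IGF-I receptor signalling in mouse beta cells, had 204 ± 10.2 RPM in KO (SD, n = 5) and 234 ± 10.04 RPM in control (SD, n = 2; adjusted p = 0.322 by limma).

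FoxO transcription factors, which insulin and IGF signalling keeps out of the nucleus, and FoxO target genes gave 3 positive and 11 negative differences of 14, with a median of -0.14. Sesn3, a FoxO target, had 85.3 ± 5.36 RPM in KO (SD, n = 5) and 107.7 ± 2.49 RPM in control (SD, n = 2; log2 difference -0.33, adjusted p = 0.116 by limma). Cdkn1b, a cell cycle inhibitor, had 33.4 ± 0.758 RPM in KO and 38.5 ± 2.72 RPM in control (adjusted p = 0.335 by limma).

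**Figure D3:**
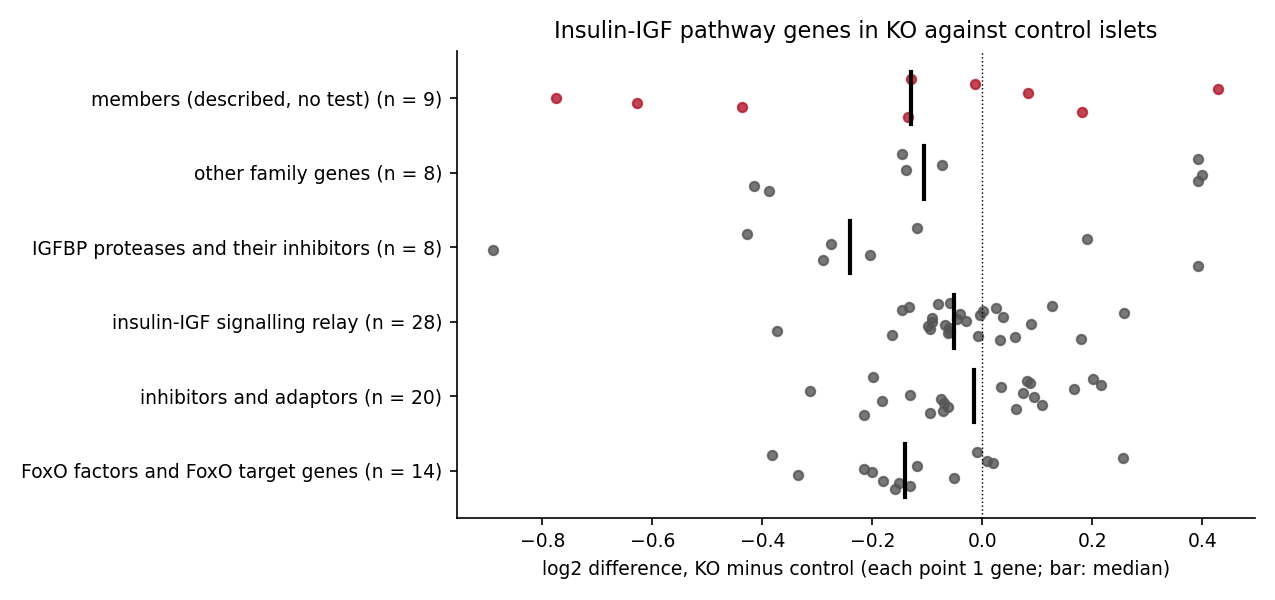
Log2 difference of KO minus control (x axis) for the 9 fitted members and the genes of 5 pathway lists, each point 1 gene and each bar the median of its row. Medians lie between -0.24 and -0.01, and the widest spread is among the members and the IGFBP proteases.

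The 3′ end of Igfbp5 lies 1.44 Mb from the 5′ end of Abca12, so the genes between them were read as its neighbours. Of 22 genes listed from Abca12 to Igfbp5, both included, 11 reached the minimum. Igfbp5 was left out of the count of tests, as it was chosen on the same contrast. Of the other 10, 0 passed by limma or with voom. Among them 1, Rpl37a, had an unadjusted p under 0.05 by limma, beside 10.8% of all genes. Among the 11, the groups were separate for Igfbp5 alone, beside 15.2% of all 16212 genes. Igfbp5 was chosen for its difference, so nothing is read from this count. The other 10 had log2 differences from -0.38 for Fn1, the fibronectin gene, to 0.25 for Rpl37a, a ribosomal protein gene, and the median of all 11 was -0.05. Rpl37a, the nearest of the 10 to Igfbp5, had 143 ± 18.5 RPM in KO (SD, n = 5) and 119 ± 3.70 RPM in control (SD, n = 2). Atic, an enzyme of purine synthesis and the nearest to Abca12, had a log2 difference of 0.01 (SE 0.07).

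**Figure D4:**
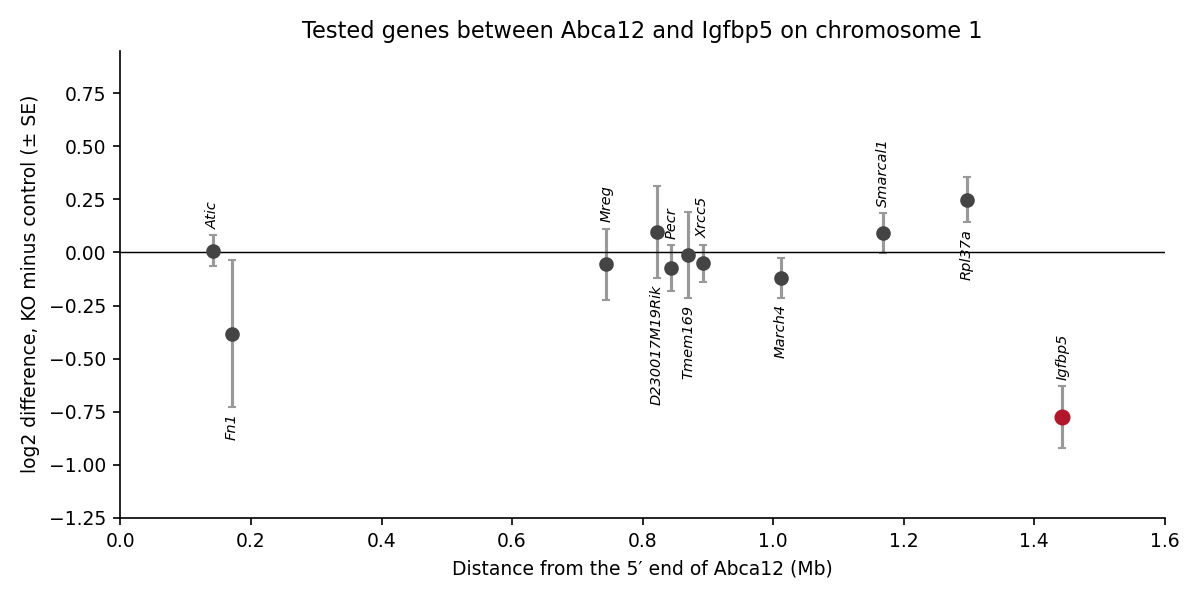
Log2 difference of KO minus control with its SE (y axis) for the 11 fitted genes between Abca12 and Igfbp5, by distance from the 5′ end of Abca12 in Mb (x axis). Igfbp5, in red at 1.44 Mb, lies at -0.78, and the other 10 genes lie between -0.38 and 0.25.

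Transcripts of several cell types moved along with Igfbp5 across the libraries. Endothelial markers summed to 147, 135, 169.9, 194 and 191 RPM in KO 1 to KO 5, against 209 and 260.2 RPM in Control 1 and Control 2, and 11 of 11 markers had a lower mean in KO. The library order of this sum and of Igfbp5 was nearly the same, with the lowest values in KO 2 and KO 1 and the highest in Control 2. Pearson's r between their log2 levels was 0.965 over the 7 libraries, which includes the difference between the groups. For the other cell type lists described below, r with Igfbp5 ran from -0.938 for acinar and -0.935 for delta and PP markers to 0.766 for macrophage markers. The endothelial markers of highest level were Eng, at 32.3 ± 4.09 RPM in KO (SD, n = 5) and 45.5 ± 12.05 RPM in control (SD, n = 2), and Plvap, at 23.6 ± 4.12 and 34.4 ± 9.37 RPM in the same groups. For use as a covariate, the level of a list was the mean log2(RPM + 1) of its fitted markers, each weighing alike, and not their sum. With the endothelial level as a covariate, an alternative added after seeing the data, the log2 difference of Igfbp5 was -0.28 (SE 0.11) and that of Igfbp3 was 0.54 (SE 0.16).

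Acinar markers ran the other way, at 3030.1, 10243, 10214, 1734 and 2040 RPM in KO 1 to KO 5, against 878 and 467 RPM in Control 1 and Control 2, with 14 of 14 markers higher in KO on average. Ctrb1, a chymotrypsinogen and the highest of them, had 1522 ± 1202 RPM in KO (SD, n = 5) and 170.1 ± 64.5 RPM in control (SD, n = 2). With the acinar level as a covariate the log2 difference of Igfbp5 was -0.30 (SE 0.15). Delta and PP cell markers summed to 1719 to 2674 RPM in KO, against 1589 and 1300 RPM in Control 1 and Control 2, with 5 of 6 higher in KO. The delta and PP level as a covariate, also added after seeing the data, gave -0.47 (SE 0.15) for Igfbp5. In each of these 3 lists, endothelial, acinar, and delta and PP, the KO and control sums were separate. The covariates are means of log2 levels of the same markers, so where they too differ between the groups they take out part of the KO difference.

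Stellate and fibroblast markers summed to 49.97 to 72.7 RPM in KO, against 65.0 RPM in Control 1 and 180.3 RPM in Control 2, and 12 of 13 were lower in KO on average. Col3a1, a fibroblast collagen, had 6.74 ± 1.90 RPM in KO (SD, n = 5) and 18.3 ± 14.8 RPM in control (SD, n = 2). With the stellate and fibroblast level as a covariate the log2 difference was -0.66 (SE 0.19) for Igfbp5, 0.17 (SE 0.13) for Igf1r and 0.13 (SE 0.22) for Igfbp4. Lymphocyte and leukocyte markers summed to 1.47 to 3.69 RPM in KO, against 2.01 RPM in Control 1 and 21.5 RPM in Control 2, with 6 of 6 lower in KO on average. Control 2 was thus the library highest in Igfbp4, Igfbp5 and Igfbp3 and in the stellate, lymphocyte and endothelial sums, and lowest in Igf1r.

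The remaining marker sums overlapped between the groups. Beta cell markers summed to 59671 to 88163 RPM in KO, against 70004 and 77096 RPM in Control 1 and Control 2, led by Ins2 and Ins1. Alpha cell markers summed to 2467 to 7142 RPM in KO, against 3054 and 3199.6 RPM in Control 1 and Control 2, and 8 of 8 were higher in KO on average. Duct markers summed to 1977 to 2736 RPM in KO, against 2325 and 2359.7 RPM in Control 1 and Control 2, with 7 of 10 higher. Macrophage markers summed to 41.0 to 52.1 RPM in KO, against 45.5 and 75.01 RPM in Control 1 and Control 2, with 4 of 7 higher, and Schwann cell and neuron markers to 7.03 to 9.001 RPM in KO, against 8.82 and 11.2 RPM in Control 1 and Control 2, with 2 of 6 higher. None of the markers in these 10 lists was at 0 reads in all libraries, and apart from the covariate values given, their part in the member differences was not tested.

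**Figure D5:**
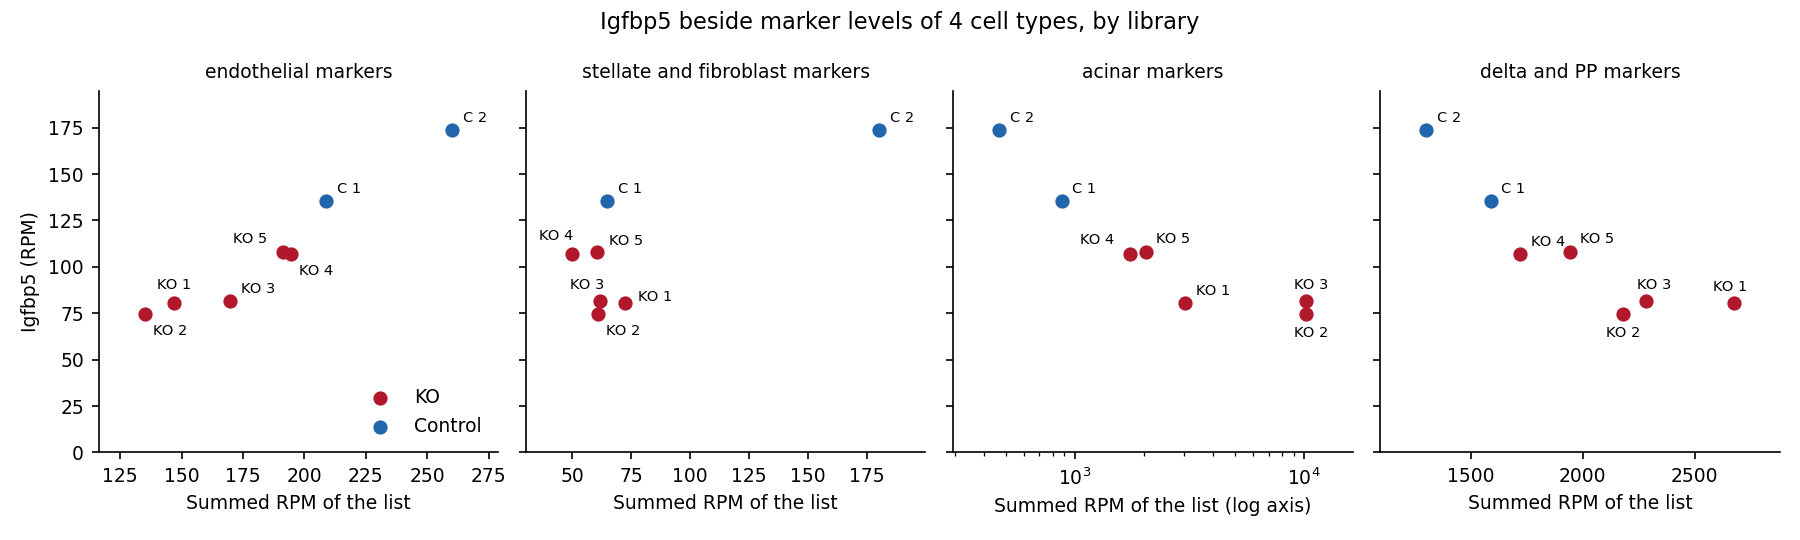
Igfbp5 level in RPM (y axis, from 0) against the summed RPM of endothelial, stellate and fibroblast, acinar (log axis), and delta and PP cell markers (x axes), each point 1 library, red for KO and blue for control. Igfbp5 is highest where the endothelial sum is highest, at 174 RPM beside 260.2 RPM in Control 2, and lowest where the acinar sum is highest, at 74.3 RPM beside 10243 RPM in KO 2.

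The genes most like Igfbp5 over the 7 libraries were looked up among 14510 other genes whose mean was 20 or more reads per library, as Pearson correlations of log2(RPM + 1), which share libraries and depth and contain the KO difference. The 8 highest were 4930402H24Rik (0.996), Arhgap31 (0.992), Rtn4rl1 (0.990), Galr3 (0.989), 9430041J12Rik (0.988), Cdc25b (0.987), Fras1 (0.985) and Far1os (0.984). Arhgap31, a GTPase-activating protein, had 6.53 ± 1.06 RPM in KO (SD, n = 5) and 10.5 ± 1.16 RPM in control (SD, n = 2), and Galr3, a galanin receptor, 13.1 ± 0.757 and 16.1 ± 0.831 RPM in the same groups. Fras1, an extracellular matrix protein, had 6.40 ± 0.799 RPM in KO and 9.55 ± 1.97 RPM in control. The 4 most opposed were Itpkc (-0.997), Krt18 (-0.982), Sync (-0.976) and Zfp868 (-0.975). Krt18, a keratin of simple epithelia such as ducts, had 246 ± 21.05 RPM in KO and 175 ± 5.71 RPM in control. Within the 5 KO libraries alone the 8 positive correlations ran from 0.930 to 0.986 and the 4 negative ones from -0.990 to -0.881. These genes were chosen over all 7 libraries, which include these 5, so such values follow largely from the choice. The best match of each other fitted member likewise stood at 0.979 to 0.994 over the 7 libraries.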

How the data were processed

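The 7 islet libraries were grouped by sample title. HISAT2, DESeq2 and GRCm38 appear in the submitters' processing notes, without versions or roles. The counting software and its strand setting were not stated in any source used. Expression was deposited by the authors as log2 values, shown by the values themselves to be log2 RPM: once unlogged, each library's values were whole multiples of its own smallest step (100% of values of up to 1000 reads lay within 0.02 of a whole read). Genes with no read carried 0.9 of a step and were set to 0. A second table deposited by the authors gives 136 genes with group mean log2 values, a fold ratio of controls to KO, and a corrected p-value whose test the header does not name.

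Genes with at least 10 reads at the median depth (0.366 RPM) in at least 2 libraries were fitted as log2(RPM + 1) with limma 3.58.1 (R 4.3.3), KO against control with an intensity trend, two-sided, with Benjamini-Hochberg adjustment over 16212 genes and a threshold of 0.05. The SEs given are the moderated ones of this fit. For Igfbp5 the SD of log2(RPM + 1) was 0.249 in KO and 0.252 in control. Fold changes on this scale understate those of low genes. The 10 genes and the gene lists were chosen with earlier results of these data known. Per pathway list, the genes past the threshold or else the 2 with the smallest unadjusted p are named, and the most similar genes follow the correlation rule stated with them. One gene that this rule selects is not reported here. All fitted genes between Abca12 and Igfbp5 were eligible, and Irs2, Igfbp1 and Igfbp6 were named in addition after their values were seen. Exon lengths came from GENCODE M21, whose positions matched 92.6% of listed genes exactly. One neighbour, listed as a date, was named March4 by its position. Plotting used matplotlib 3.10.9.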

Additional observations from a re-analysis of the deposited data

How the results depend on the processing

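Leaving out libraries could not turn the signs of Igfbp5 and Insr, whose groups were separate. The log2 difference of Igfbp5 was negative in all 25 alternatives, from -0.98 to -0.28. It moved beyond the spread between libraries in 3 of them: -0.30 with the acinar level, -0.28 with the endothelial level and -0.47 with the delta and PP level as a covariate, the last 2 added after seeing the data. With 1 library left out it ran from -0.95 to -0.60. Signs were kept in all alternatives for Igf1r (0.17 to 0.64) and Insr (-0.16 to -0.10). They turned in some for Igf1 (-0.37 to 0.13), Igf2 (-0.04 to 0.41), Igfbp3 (-0.95 to 0.54), Igfbp4 (-1.36 to 0.13), Igfbp7 (-0.06 to 0.30) and Igf2r (-0.15 to 0.10). The number of genes called over the whole table, 10, was 4 without a filter, 19 with median-of-ratios or upper-quartile scaling, 42 with robust empirical Bayes, 1 without the intensity trend, 3 with the header letter, 0 with the acinar level, 2 with the stellate level, 0 with the endothelial level and 3 with the delta and PP level as a covariate, 47 without the pair KO 2 and KO 3, and 2 to 120 with 1 library left out (3 without KO 3, 2 without KO 4, 2 without Control 2 and 120 without Control 1). Leaving out a control sets 1 library against 5, which is then assumed to vary like the others. Pathway genes called numbered 0, and 0 to 1 with 1 library left out. With the replicate number as a block, which only numbers 1 and 2 can inform, 11 genes were called and Igfbp5 stood at -0.98; deviations from the group mean correlated at -0.10 for the libraries numbered 1 and -0.24 for those numbered 2, so the numbers were not taken as pairs. The order of the 10 genes per length was kept at 3 ranks with the gene span as length, at 6 within KO 3 and at 3 within Control 2. The cause of these changes was not tested. Depth limits Igfbp2, Igf1 and Igf2, with 49 reads at most, and outside the 10 genes also Igf2bp3 and Mmp2, with 28 and 29 at most.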

Other observations

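Igf2 lies beside Ins2 on chromosome 7 and is imprinted. The noncoding RNA H19 of the same domain had 0.884 ± 0.396 RPM in KO (SD, n = 5) and 0.418 ± 0.177 RPM in control (SD, n = 2). Its groups overlapped, at 7 to 39 reads per library. The antisense transcript Igf2os had at most 7 reads in any library. Pappa2, a protease that cleaves IGFBP-3 and IGFBP-5, stood at 74.8 ± 14.97 RPM in KO (SD, n = 5) and 90.1 ± 1.44 RPM in control (SD, n = 2), while Pappa, the protease of IGFBP-4, had 3.84 ± 0.925 RPM in KO and 2.64 ± 0.0639 RPM in control, with every KO library above both controls. Igfals, which joins IGFs and IGFBP-3 in a larger complex in blood, had 50.5 ± 9.75 RPM in KO and 66.1 ± 13.0 RPM in control. For Pappa2 and Igfals the groups overlapped. The genes of this paragraph were chosen after their values were seen.

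For each other fitted member, the gene with the highest Pearson correlation over the 7 libraries was Oas1c for Igf1 (0.987), Pnn for Igf2 (0.989), Gfra3 for Igfbp3 (0.993), Col1a2 for Igfbp4 (0.979), Trim7 for Igfbp7 (0.982), Slc4a11 for Igf1r (0.979), 6430511E19Rik for Igf2r (0.994) and Avl9 for Insr (0.982). Col1a2, a collagen gene of fibroblasts, had 5.24 ± 1.41 RPM in KO (SD, n = 5) and 13.1 ± 12.6 RPM in control (SD, n = 2), and its highest library, like that of Igfbp4, was Control 2. Gfra3, a receptor for the neurotrophic factor artemin, had 45.9 ± 10.5 RPM in KO and 54.4 ± 9.01 RPM in control. Among the members themselves, the closest were Igfbp3 and Igfbp5 at 0.76, and the most opposed Igf2 and Igfbp3 at -0.84, followed by Igfbp5 and Igf1r at -0.77. These are the extremes over all pairs of fitted members in 7 libraries and contain the KO difference. Igf2 held only 22 to 49 reads per library, and no pair was tested.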
